A study of Mus musculus with 15 samples.

Results

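The auditory nerve of mice killed directly after a noise exposure was compared with that of mice that heard none. The 6 arrays of this comparison, 3 immediate and 3 control, were taken by their sample titles from the 15 arrays of the series, and all 13644 genes with a usable probe set are described. The mice were of the inbred strain CBA/CaJ, young adults of 5 to 12 weeks, with no altered gene named in the labels, and raised in a quiet animal room. The exposed mice heard 2 h of octave-band noise between 8 and 16 kHz, at a level of 106 dB SPL, and were taken at day 0, whereas the controls were not exposed. Each array held the nerves of both ears of 1 mouse. All 3 controls and immediate replicates 1 and 2 were female, and immediate replicate 3 was male, so sex and exposure were not balanced. The tissue was the modiolus, the core of the cochlea, left after removal of the bony shell, of the lateral wall and of much of the sensory epithelium. It therefore held neurons, Schwann cells, other glia, vessels, bone and blood cells together, and fewer cells of a type cannot be told apart from less RNA per cell. Values are deposited log2 intensities of Affymetrix 3′ arrays, on which 1 unit is a 2-fold step. The series is about noise, myelin and the RNA-binding protein Quaking, and this comparison asks which transcripts differed at the earliest time sampled.

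Immediate early genes are transcribed within minutes of a stimulus, without new protein synthesis, and most encode transcription factors of the AP-1, Egr and Nr4a families or inhibitors of the signal that induced them. Calcium and cAMP act on such genes through the factor CREB, growth factors and stress act through MAP kinases, and cytokines of the IL-6 family act through STAT3. In nerve tissue these programmes are known from electrical activity, from injury and from handling of the animal.

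Markers of the labelled tissue were strongly measured. The neurofilament gene Nefl lay at 13.45, 13.37 and 13.46 in the controls and 13.46, 13.50 and 13.45 after noise, and the myelin gene Pmp22 at 13.37, 13.30 and 13.36 in the controls and 13.25, 13.19 and 13.22 after noise. Markers of support cells and fibrocytes were also well measured, Coch at 14.22, 14.26 and 14.22 in the controls and 14.28, 14.20 and 14.21 after noise, so the dissected tissue was not nerve alone. Array medians ran from 5.87 to 5.92, and at most 3.51% of values were identical between any 2 of the arrays. The sex given for each array was matched by Xist and Eif2s3y. Of the 4 pairs of control probe sets that compare the 3′ with the 5′ end of a transcript, the transferrin receptor pair differed without overlap, with a mean of 0.55 in the controls and 0.27 after noise (exact permutation test, two-sided, p = 0.1, the smallest that 3 against 3 arrays allow). The other 3 pairs gave exact p of 0.3 or 0.4, and the part of RNA quality in the results was not tested.

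Immediately after noise, 79 genes rose and 48 fell, where a call is an adjusted p under 0.05 in limma's moderated test over all genes. The calls were 0.931% of the genes tested, 0.579% as rises and 0.352% as falls. Rises were the larger changes. Of the rises, 16 were at least 2-fold and 42 at least 1.5-fold, whereas 0 falls reached 2-fold and 7 reached 1.5-fold. The median rise was 0.61 and the median fall -0.37, beside -0.02 over all genes, whose quartiles were -0.11 and 0.08 and whose median standard error was 0.10. Without adjustment, 7.26% of the genes tested had a higher and 8.22% a lower value at p under 0.05. All 127 called genes had their 3 immediate arrays on one side of all 3 controls. Over all genes, 8.86% had the immediate arrays wholly above and 12.3% wholly below the controls. The split between rises and falls leaned on the scaling. It was 87 to 83 after quantile normalization and 82 to 76 with arrays set to a common 75th percentile, which shifted the median of all genes to -0.03 and -0.04.

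The early genes called at the head of the list, Fos, Gem, Nr4a1, Dio2, Junb, Nr4a3, Socs3 and Fosl2, rose between 1.95 and 2.96 on the log2 scale. Behind them the second rank of rises, ranked 9 to 30 by size, ran from 1.48 for Cebpb to 0.73 for Phlda1. It held further transcription factors, inhibitors of kinase signalling, receptors and secreted proteins, taken up by class below. Where a gene lost its call with 1 of the 6 arrays left out, the range of its difference over the 6 removals is given in brackets. Genes ranked below 30 in either direction and outside the gene lists, and list members that were not called in lists that hold a call, are named after their values were seen.

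**Figure D1:**
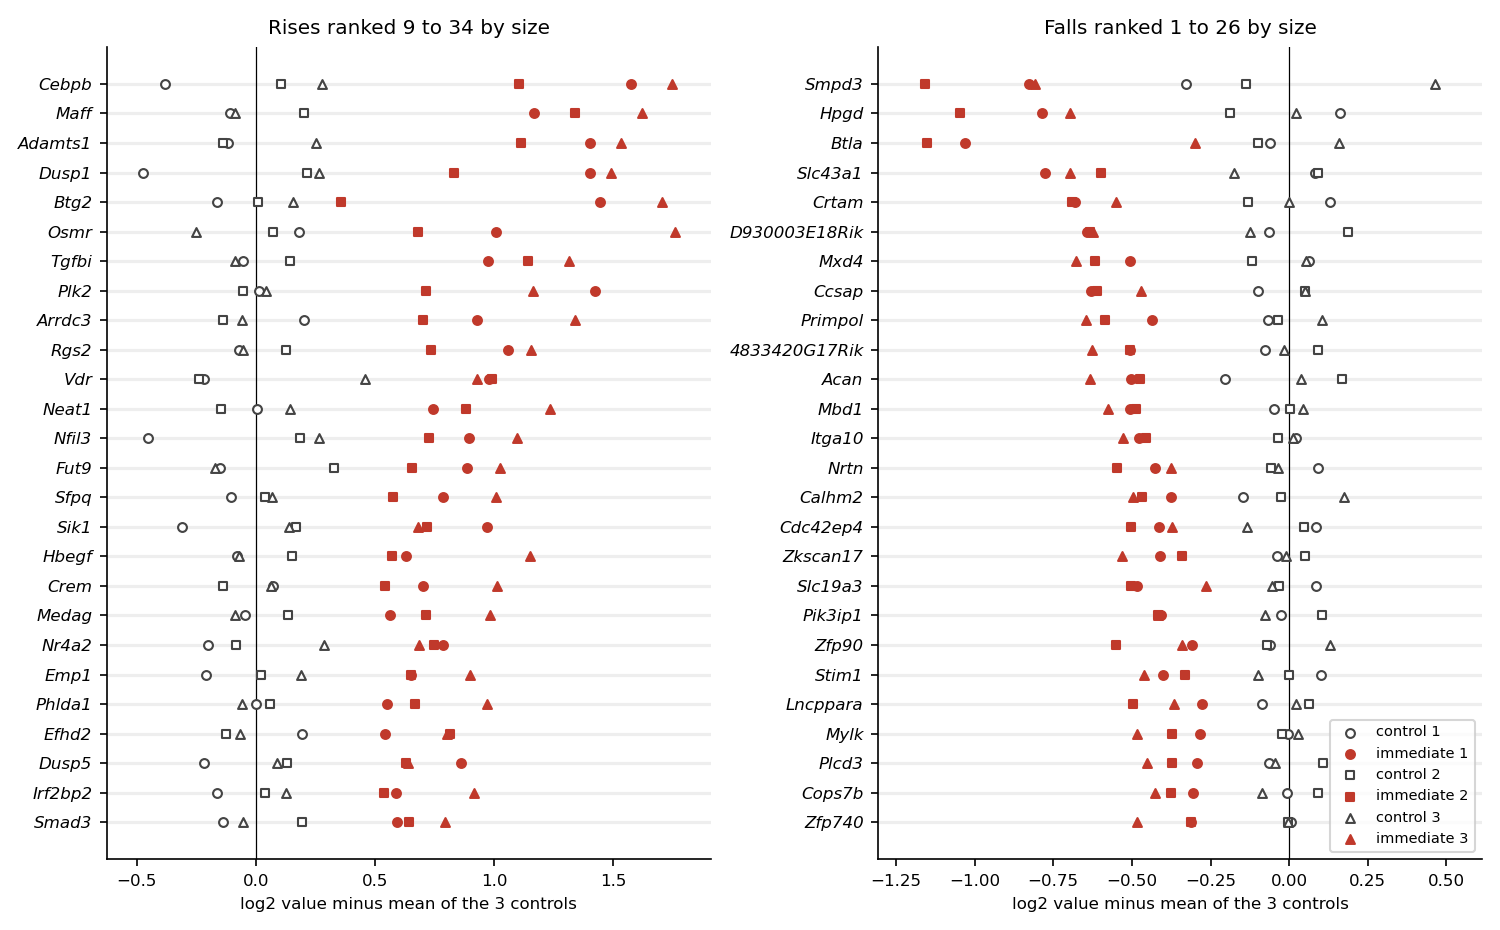
Values of the 6 arrays for the rises ranked 9 to 34 (left) and the falls ranked 1 to 26 (right), each as log2 value minus the mean of the 3 controls of that gene on the horizontal axis, 1 gene a row; open symbols are controls, filled symbols immediate arrays, and the symbol shape gives the replicate number. In every row the 3 filled symbols lie on one side of the 3 open ones, and Btg2 and Btla have a single immediate array close to the controls.

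The gene lists taken up from here on were chosen with earlier results of these data known. Their counts stand beside 0.579% rises, 0.352% falls and a median of -0.02 over all genes tested. Among the AP-1 subunits, leucine zipper proteins that bind DNA as pairs, 4 of 10 measured members rose and 0 fell, with a median of 0.30. Besides Fos, Junb and Fosl2, the small Maf protein Maff was called. Maff lay at 6.60, 6.91 and 6.62 in the controls and 7.88, 8.05 and 8.33 after noise. Its groups were far apart relative to their spread, and the difference was 1.38 ± 0.20 (SE, n = 3 per group, adjusted p = 0.00481). Jun, the common partner of Fos, stood at 0.41 and Jund at 0.18 without a call (adjusted p 0.200 and 0.185). In the neighbouring list of Nr4a, Egr and Klf factors, 3 of 16 members rose, all of them the orphan nuclear receptors Nr4a1, Nr4a3 and Nr4a2, and the median was 0.27. Nr4a2 lay at 8.02, 8.14 and 8.51 in the controls and 9.01, 8.97 and 8.91 after noise, a difference of 0.74 ± 0.15 (SE, n = 3 per group, adjusted p = 0.0324). Egr1, a zinc finger factor induced by activity, differed by more than most called genes and was not called. It lay at 7.65, 8.43 and 8.61 in the controls and 10.70, 9.37 and 11.32 after noise, so the groups did not overlap, but the immediate arrays spread over nearly 2 units, and the difference was 2.23 ± 0.56 (SE, n = 3 per group, adjusted p = 0.0718). Klf4 (0.86, adjusted p 0.0859) and Ier2 (0.92, adjusted p 0.0590) also missed the threshold without overlap. Maff kept the call whichever of the 6 arrays was left out. The call was lost without control replicates 1 or 2 or immediate replicates 1, 2 or 3 for Nr4a2 (0.64 to 0.88), and without control replicates 1, 2 or 3 or immediate replicates 1 or 3 for Junb (1.86 to 2.96). Other probe sets of Nr4a3 and Fosl2 stood near 0, at 0.02 and 0.06 for Nr4a3 and -0.01 for Fosl2.

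Targets of cAMP and CREB were the list with the largest median. Of its 20 measured members 7 rose and 0 fell, with a median of 0.56, and 14 lay above 0. Cebpb, a leucine zipper factor of stress and inflammation, lay at 9.03, 9.52 and 9.69 in the controls and 10.99, 10.52 and 11.16 after noise. All 3 exposed mice were above every control, with replicate 2 lowest, and the difference was 1.48 ± 0.24 (SE, n = 3 per group, adjusted p = 0.00987). Rgs2, which switches off G protein alpha subunits, lay at 9.94, 10.14 and 9.96 in the controls and 11.07, 10.75 and 11.17 after noise, a difference of 0.98 ± 0.11 (SE, n = 3 per group, adjusted p = 9.66e-04). Crem, whose short product represses CREB targets, lay at 6.49, 6.28 and 6.48 in the controls and 7.12, 6.96 and 7.43 after noise, a difference of 0.75 ± 0.11 (SE, n = 3 per group, adjusted p = 0.00481). Sik1, a kinase that restrains CREB coactivators, lay at 6.93, 7.41 and 7.38 in the controls and 8.21, 7.96 and 7.92 after noise, a difference of 0.79 ± 0.16 (SE, n = 3 per group, adjusted p = 0.0324). Nr4a1, Gem and Dusp1 complete the 7. The phosphodiesterases Pde4b and Pde10a, which degrade cAMP, stood at 0.52 and 0.79 with adjusted p of 0.0527 and 0.0630, and Pde3b, outside the list, rose by 0.33. Rgs2 and Crem kept the calls whichever of the 6 arrays was left out. Calls ended without immediate replicate 3 for Cebpb (1.28 to 1.66), and in each of the 6 removals for Sik1 (0.64 to 0.88) and Pde3b (0.30 to 0.35).

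The full cAMP response element, TGACGTCA, was found in the 250 bases before the start of 5 of the 15 genes among the 2-fold rises that have a RefSeq promoter, or 33.3%. It was found in 2.81% of the 10945 tested genes with a promoter, in 5 of 63 rises (7.94%) and in 0 of 42 falls. In the cAMP and CREB list it was found in 2 of 15 genes (13.3%), and in the MAP kinase feedback list in 3 of 15 (20%). The share is a description of genes chosen by their values, and a match of letters is not a shown binding site. The stretches that hold the element are printed here because the 5 genes carry different functions and share this string. They are read 5′ to 3′ on the gene's strand in GRCm38.p6, with the element in capitals, at chr1:134079288-134079347 on the minus strand for Btg2, chr12:90739100-90739159 on the minus strand for Dio2, chr17:26508582-26508641 on the minus strand for Dusp1, chr15:79347460-79347519 on the plus strand for Maff and chr13:110394956-110395015 on the plus strand for Plk2.
Btg2: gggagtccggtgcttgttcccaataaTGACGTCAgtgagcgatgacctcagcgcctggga
Dio2: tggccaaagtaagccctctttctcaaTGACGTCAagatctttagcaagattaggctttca
Dusp1: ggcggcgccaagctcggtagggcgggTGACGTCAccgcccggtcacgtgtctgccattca
Maff: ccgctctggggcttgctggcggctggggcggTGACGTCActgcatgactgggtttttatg
Plk2: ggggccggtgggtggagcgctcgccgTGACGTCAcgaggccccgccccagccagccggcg
The element starts 166, 95, 143, 29 and 62 bases before the start of Btg2, Dio2, Dusp1, Maff and Plk2. Both strands were searched for 9 motifs, none of which contains another. The others were the AP-1 site TGANTCA, the NBRE AAAGGTCA, SRE-1 TCACNCCAC, the heat shock element GAANNTTC and the CArG box. The E-box was searched as CACGTG, the TATA box as the letters TATAAA and the box bound by NF-Y as the letters CCAAT. Of these the AP-1 site, the NBRE and the CArG box were found in 0 of the 15 genes, and in 5.56%, 1.06% and 1.39% of the tested genes. Sites further than 250 bases before the start, or with other letters, were not searched. The TATA box was found in 3 of the 15 genes (20%), beside 8.42% of the tested genes.

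Of the genes with the element, Dio2 and Plk2 were well above the controls in all 3 exposed mice, whereas Btg2 was in 2. Dio2, the enzyme that turns the prohormone thyroxine into active thyroid hormone, was the only called gene of 9 measured in the thyroid hormone list, whose median was -0.04. It lay at 6.62, 6.78 and 7.40 in the controls and 9.11, 9.09 and 9.64 after noise, a difference of 2.35 ± 0.22 (SE, n = 3 per group, adjusted p = 1.25e-04). The hormone receptors Thra and Thrb stood at -0.04 and -0.07, and the hormone-responsive gene Klf9 at 0.03. Plk2, a kinase of growth arrest and of synapse weakening, lay at 7.48, 7.41 and 7.51 in the controls and 8.89, 8.18 and 8.63 after noise. Its lowest exposed array was above the highest control, and the difference was 1.10 ± 0.13 (SE, n = 3 per group, adjusted p = 0.00102). Btg2, a regulator of mRNA decay and of growth arrest, lay at 7.33, 7.50 and 7.65 in the controls and 8.94, 7.85 and 9.20 after noise. Immediate replicate 2 was only just above the highest control, and the difference was 1.17 ± 0.25 (SE, n = 3 per group, adjusted p = 0.0373). Dio2 and Plk2 kept the calls whichever of the 6 arrays was left out. Significance was lost without control replicates 1, 2 or 3 or immediate replicates 1 or 3 for Btg2 (0.90 to 1.58). With sex as a term Btg2 lost its call as well (adjusted p 0.0685).

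Some genes that damp MAP kinase signalling were among the rises. Of 18 measured members of that list 4 rose and 0 fell, the median was 0.40, and 15 lay above 0. Dusp1, a phosphatase that removes phosphate from MAP kinases in the nucleus, lay at 9.43, 10.12 and 10.17 in the controls and 11.31, 10.74 and 11.40 after noise, a difference of 1.24 ± 0.22 (SE, n = 3 per group, adjusted p = 0.0148). Phlda1, a pleckstrin homology domain protein induced by growth factors, lay at 8.64, 8.70 and 8.58 in the controls and 9.19, 9.31 and 9.61 after noise, a difference of 0.73 ± 0.10 (SE, n = 3 per group, adjusted p = 0.00456). The ERK phosphatase Dusp5 rose by 0.71 and the Ras inhibitor Spred1 by 0.33. Ier3, Dusp6, Dusp4 and Spry2 stood at 1.06, 0.88, 0.63 and 0.47, with adjusted p between 0.0695 and 0.0852. Phlda1 kept the call whichever of the 6 arrays was left out. The call was lost without immediate replicates 1 or 3 for Dusp1 (1.00 to 1.45), and without control replicates 1, 2 or 3 or immediate replicates 1 or 3 for Spred1 (0.27 to 0.39), and in each of the 6 removals for Dusp5 (0.60 to 0.78).

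Negative regulators of G proteins and calcium channels were called beside these. In the list of RGS and G protein regulators 2 of 17 members rose, Gem and Rgs2, and the list's median was 0.05. Gem, a small GTPase that holds back voltage-gated calcium channels, lay at 5.25, 5.14 and 4.87 in the controls and 7.34, 7.31 and 8.83 after noise, a 6.68-fold difference. Cbarp, which inhibits the same class of channel through its beta subunit, is outside the lists and lay at 7.68, 7.85 and 7.98 in the controls and 8.49, 8.48 and 8.40 after noise, a difference of 0.62 ± 0.10 (SE, n = 3 per group, adjusted p = 0.00987). Rasd1, a Ras-like GTPase, stood at 1.04 (adjusted p 0.0707). Rgs3 stood on the other side of 0, at -0.36 (adjusted p 0.0901). Gem, Rgs2 and Cbarp kept the calls whichever of the 6 arrays was left out.

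Of the IL-6 and STAT3 list 2 of 13 measured members rose and 0 fell, with a median of 0.14. Osmr, the receptor subunit for oncostatin M, lay at 7.09, 6.98 and 6.66 in the controls and 7.92, 7.59 and 8.67 after noise. Immediate replicate 3 was the highest by far, and the difference was 1.15 ± 0.23 (SE, n = 3 per group, adjusted p = 0.0278). Socs3, the feedback inhibitor of this receptor family, lay at 5.95, 6.30 and 5.89 in the controls and 7.67, 7.19 and 9.20 after noise, a difference of 1.97 ± 0.39 (SE, n = 3 per group, adjusted p = 0.0273). Stat3 itself stood at 0.51 (adjusted p 0.0647) and the shared receptor subunit Il6st at 0.14. Neither the NF-kB list (0 of 17 called, median 0.08) nor the cytokines and chemokines (0 of 17 called, median 0.11) held a call. In the NF-kB list the smallest p belonged to Ptgs2, Relb and Bcl3, at 1.89, 0.38 and 0.47. Ptgs2, the inducible enzyme of prostaglandin synthesis, lay at 4.36, 3.86 and 4.22 in the controls and 6.10, 4.63 and 7.38 after noise, so the 3 exposed mice ran from just above the controls to 3 units above them. Among chemokines Ccl2, Cxcl1 and Ccl7 stood at 1.03, 0.78 and 0.58 with adjusted p of 0.0971, 0.180 and 0.201. Significance was lost without control replicates 2 or 3 or immediate replicates 1 or 3 for Osmr (0.84 to 1.39), and without control replicates 1, 2 or 3 or immediate replicates 1 or 3 for Socs3 (1.38 to 2.39). Both also lost the call with sex as a term, at adjusted p 0.0544 and 0.0553.

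Growth factor genes held 1 rise among 21 measured, with a median of 0.03. It was that of Hbegf, a ligand of the EGF receptor that is shed from the cell surface, at 6.71, 6.94 and 6.72 in the controls and 7.42, 7.36 and 7.94 after noise and with a difference of 0.78 ± 0.16 (SE, n = 3 per group, adjusted p = 0.0366). Several genes outside the lists encode proteins that act at the cell surface or in the matrix. Tgfbi, a matrix protein induced by TGF-beta, had the smallest adjusted p of the called genes. It lay at 9.60, 9.80 and 9.57 in the controls and 10.63, 10.80 and 10.97 after noise, a difference of 1.14 ± 0.10 (SE, n = 3 per group, adjusted p = 9.98e-05). Adamts1, a secreted metalloproteinase that cuts proteoglycans, lay at 7.94, 7.92 and 8.31 in the controls and 9.46, 9.17 and 9.59 after noise, a difference of 1.35 ± 0.25 (SE, n = 3 per group, adjusted p = 0.0208). The membrane protein Emp1 rose by 0.73 and the Wnt receptor Fzd1 by 0.61. Further rises were seen for Smad3, which carries TGF-beta signals to the nucleus (0.68), the FGF-binding protein Fgfbp3 (0.67), the chemokine scavenger Ackr3 (0.49), the adhesion receptor Pvr (0.52), the morphogen Shh (0.49), the insulin receptor substrate Irs2 (0.47) and the protease Pappa (0.43), which frees insulin-like growth factors from a binding protein. Tgfbi and Fzd1 kept the calls whichever of the 6 arrays was left out. The call was lost without immediate replicate 3, and for some also without control replicates 1, 2 or 3 or immediate replicates 1 or 2, for Hbegf (0.60 to 0.89), Adamts1 (1.26 to 1.48), Smad3 (0.61 to 0.77), Fgfbp3 (0.58 to 0.81), Ackr3 (0.38 to 0.55), Pvr (0.44 to 0.63), Shh (0.44 to 0.59) and Irs2 (0.41 to 0.53), and in each of the 6 removals for Emp1 (0.63 to 0.83) and Pappa (0.41 to 0.44).

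Lists chosen as targets of TGF-beta and BMP, Wnt, Notch, and SRF, MRTF and YAP held no call. Tgfbi, named above as induced by TGF-beta, was not a member, and not every ligand or receptor above had a target list. The TGF-beta and BMP targets (17 measured) had a median of 0.07, the Wnt targets and inhibitors (15) -0.10, the Notch targets (14) 0.05 and the SRF, MRTF and YAP targets (18) 0.03. The smallest p in them belonged to Skil (0.31), Ski (-0.28) and Id4 (0.38) for TGF-beta, and to Dkk2 (1.17), Axin2 (-0.29) and Sost (-1.38) for Wnt. They belonged to Hey2 (0.24), Hey1 (-0.23) and Nrarp (-0.24) for Notch, and to Tpm4 (0.42), Amotl2 (-0.23) and Actg1 (0.13) for SRF and YAP. The large values of Dkk2 and Sost came with a wide spread. Dkk2 lay at 5.77, 7.02 and 6.58 in the controls and 7.88, 7.35 and 7.64 after noise (adjusted p 0.149), and Sost, which osteocytes make, at 7.38, 8.29 and 8.66 in the controls and 6.30, 6.21 and 7.68 after noise (adjusted p 0.159). The groups overlapped for Sost and not for Dkk2.

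Transcription factors and cofactors outside the early families also rose. Vdr, the vitamin D receptor, lay at 6.01, 5.99 and 6.69 in the controls and 7.21, 7.22 and 7.16 after noise. Control replicate 3 was the highest control and the immediate arrays were nearly level, and the difference was 0.97 ± 0.20 (SE, n = 3 per group, adjusted p = 0.0366). Irx3, a homeodomain factor, lay at 9.87, 9.97 and 9.94 in the controls and 10.69, 10.39 and 10.60 after noise, a difference of 0.63 ± 0.08 (SE, n = 3 per group, adjusted p = 0.00240). Nfil3, a leucine zipper repressor that acts on clock genes, was the only call of 18 in the clock list, at 6.03, 6.67 and 6.75 in the controls and 7.38, 7.21 and 7.58 after noise, a difference of 0.91 ± 0.20 (SE, n = 3 per group, adjusted p = 0.0415). The core clock genes Clock and Cry1 stood at 0.28 and 0.26 and the clock repressors Ciart and Nr1d1 at -0.50 and -0.44, all without a call. The labels used here do not give the hour at which mice were killed, so hour and exposure cannot be told apart. Hivep2 rose by 0.57, the corepressor Irf2bp2 by 0.68 and Twist2 by 0.49. Irx3 and Hivep2 kept the calls whichever of the 6 arrays was left out. Calls ended without control replicates 1 or 2 or immediate replicates 1, 2 or 3 for Vdr (0.85 to 1.20), and in each of the 6 removals for Nfil3 (0.68 to 1.04), Irf2bp2 (0.56 to 0.75) and Twist2 (0.37 to 0.56).

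Several rises encode RNA-binding proteins or nuclear RNA, a grouping made after the values were seen. Neat1, the long noncoding RNA that builds nuclear paraspeckles, lay at 9.40, 9.25 and 9.54 in the controls and 10.14, 10.28 and 10.63 after noise, a difference of 0.95 ± 0.11 (SE, n = 3 per group, adjusted p = 0.00131). Sfpq, a protein of the same bodies, lay at 8.66, 8.80 and 8.83 in the controls and 9.55, 9.34 and 9.77 after noise, a difference of 0.79 ± 0.17 (SE, n = 3 per group, adjusted p = 0.0369). Among 15 regulators of mRNA decay 2 rose, Btg2 and Zfp36l1, and the median was 0.14. Zfp36l1, which brings AU-rich mRNAs to decay, rose by 0.61, while its better known relative Zfp36 stood at 0.49 (adjusted p 0.545). Outside the list the neuronal RNA-binding protein Elavl2 rose by 0.51, Rbm12 by 0.49 and the noncoding microRNA host Mirg by 0.40. Of the 5 other probe sets of Sfpq 4 stood at 0.53, 0.30, 0.65 and 0.52, and the other at -0.04. Neat1 kept the call whichever of the 6 arrays was left out. Significance was lost without control replicate 2 or immediate replicate 3 for Elavl2 (0.45 to 0.56), and without control replicates 1, 2 or 3 or immediate replicates 1 or 3 for Zfp36l1 (0.48 to 0.71) and Rbm12 (0.44 to 0.56), and in each of the 6 removals for Sfpq (0.68 to 0.90) and Mirg (0.37 to 0.43).

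Enzymes of cholesterol synthesis were also among the rises. Of 20 measured members of that list 5 rose and 0 fell, the median was 0.21, and 17 lay above 0. Idi1, which isomerises the building block of all sterols, lay at 9.04, 8.78 and 8.81 in the controls and 9.37, 9.52 and 9.49 after noise, a difference of 0.58 ± 0.09 (SE, n = 3 per group, adjusted p = 0.00823). Hmgcs1, an early enzyme of the pathway, lay at 11.36, 11.27 and 11.44 in the controls and 11.70, 11.80 and 11.77 after noise, a difference of 0.40 ± 0.06 (SE, n = 3 per group, adjusted p = 0.00481). The later enzymes Sqle, Msmo1 and Cyp51 rose by 0.47, 0.41 and 0.38. Fatty acid synthesis, run in part by the same factor family, held 0 calls among 16 members and a median of -0.03, with Elovl6, Elovl7 and Elovl1 at 0.35, 0.59 and 0.19. Hmgcs1 kept the call whichever of the 6 arrays was left out. The call was lost without control replicate 2 or immediate replicate 3 for Idi1 (0.54 to 0.67) and Sqle (0.41 to 0.55), and without control replicates 2 or 3 or immediate replicates 1, 2 or 3 for Msmo1 (0.34 to 0.50) and Cyp51 (0.31 to 0.46).

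The CCAAT string stood in the 250 bases before at least 1 start of 16 of 16 measured cholesterol genes with a promoter in the table, beside 39.3% of tested genes, whether called or not. By promoter it stood in 16 of the 19 of these genes (84.2%), beside 34.1% of the promoters of tested genes. SRE-1, the sterol response element in the form searched, stood in 1 of the 16 genes, Hmgcs1, beside 1.27% of tested genes. Stretches of 4 of the called genes are printed to show the string that the enzymes share, with CCAAT (or ATTGG, the same on the other strand) and SRE-1 in capitals; Sqle has no promoter in the table. They lie at chr5:4104698-4104757 on the minus strand for Cyp51, chr13:119690169-119690228 on the plus strand for Hmgcs1, chr13:8885546-8885605 on the plus strand for Idi1 and chr8:64733601-64733660 on the minus strand for Msmo1 in GRCm38.p6.
Cyp51: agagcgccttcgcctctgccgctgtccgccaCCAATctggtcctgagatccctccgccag
Hmgcs1: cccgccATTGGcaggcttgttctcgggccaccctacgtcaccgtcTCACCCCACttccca
Idi1: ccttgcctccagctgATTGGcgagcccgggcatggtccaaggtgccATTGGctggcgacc
Msmo1: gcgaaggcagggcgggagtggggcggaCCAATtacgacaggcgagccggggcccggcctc
The last capitals of Hmgcs1 are the SRE-1 match, 137 bases before the start. The promoters came from RefSeq.

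The stress lists held few calls. Of 17 heat shock proteins 16 lay above 0, with a median of 0.19, and Hspa8, the constitutive member of the family, rose by 0.34 (adjusted p 0.0233). The inducible Hspa1b and Hspa1a stood at 0.95 and 0.64 with adjusted p of 0.161 and 0.135. In the list of the unfolded protein and integrated stress responses 19 of 22 lay above 0, with a median of 0.18. Chac1, a glutathione-degrading enzyme induced by the factor ATF4, lay at 6.51, 6.57 and 6.53 in the controls and 7.14, 7.02 and 7.38 after noise, a difference of 0.64 ± 0.14 (SE, n = 3 per group, adjusted p = 0.0373). Ddit3 stood at 0.47 and Xbp1 at 0.48 (adjusted p 0.0712 and 0.115). Of 15 genes of p53 and growth arrest 2 rose, Plk2 and Btg2, and the median was 0.10. Gadd45g stood at 0.88 (adjusted p 0.0589). The Nrf2 list (13 measured, median 0.03) and the hypoxia list (19 measured, median 0.01) held 0 calls. Their smallest p belonged to Slc7a11 (0.61), Gclm (0.13) and Gsr (0.13), and to Ldha (0.40), Vegfa (0.31) and Ndrg1 (-0.14). Neuronal activity effectors, which act at synapses after the early factors, held 0 calls among 11, with a median of 0.08 and Homer1, Sv2b and Vgf at 0.17, -0.16 and 0.61. Calls ended without control replicates 1 or 2 or immediate replicates 1, 2 or 3 for Hspa8 (0.31 to 0.38), and in each of the 6 removals for Chac1 (0.54 to 0.72).

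The list chosen as targets of the glucocorticoid receptor, which answer stress hormone in many tissues, held no call. Called genes of other lists, Dusp1 among them, were not members, so the count holds for this choice of genes only. Of 20 measured members 0 were called, 13 lay below 0, and the median was -0.17, the lowest of the lists that are not cell markers. Arrdc2 lay at 8.34, 8.77 and 8.34 in the controls and 7.35, 7.73 and 7.53 after noise, without overlap, and missed the threshold, at -0.95 ± 0.22 (SE, n = 3 per group, adjusted p = 0.0558). Fkbp5, a feedback chaperone of the receptor, lay at 10.08, 9.30 and 9.51 in the controls and 8.51, 9.18 and 8.46 after noise, without overlap, at -0.91 ± 0.37 (SE, n = 3 per group, adjusted p = 0.250). Errfi1 stood on the other side, at 0.54 (adjusted p 0.195), and Tsc22d3 at -0.32. Arrdc3, a relative of Arrdc2 outside the list, rose, at 7.88, 7.54 and 7.62 in the controls and 8.61, 8.38 and 9.02 after noise and with a difference of 0.99 ± 0.16 (SE, n = 3 per group, adjusted p = 0.00987). Significance was lost without control replicate 2 or immediate replicate 3 for Arrdc3 (0.81 to 1.14).

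**Figure D2:**
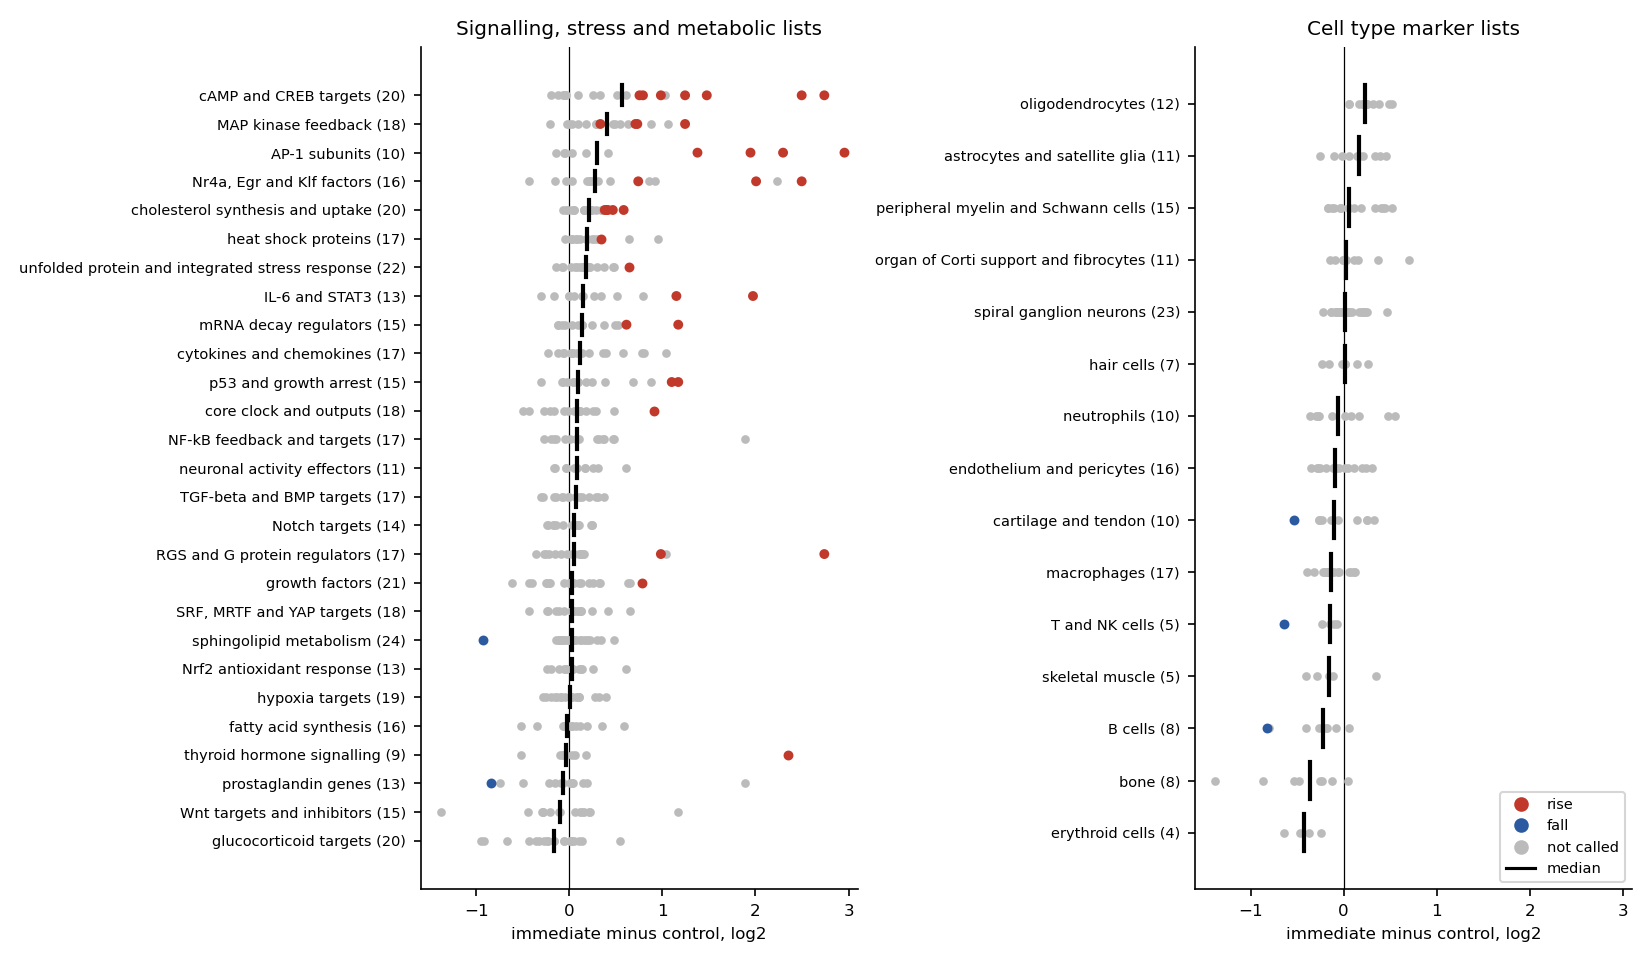
Difference between immediate and control arrays (horizontal axis, log2) for every measured member of the 27 signalling, stress and metabolic lists (left) and the 15 marker lists (right), with the number measured in brackets; red points rose, blue points fell, grey points were not called, and the black bar is the median of the list. The cAMP and CREB list has the highest median, 0.56, and the glucocorticoid list the lowest on the left, -0.17.

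Other rises of the second rank fell in none of the lists. Fut9, which makes a carbohydrate epitope of neural cells, lay at 4.81, 5.29 and 4.79 in the controls and 5.85, 5.62 and 5.99 after noise, a difference of 0.86 ± 0.19 (SE, n = 3 per group, adjusted p = 0.0487). Medag rose by 0.75. Efhd2, a calcium-binding protein of the actin cytoskeleton, lay at 9.12, 8.80 and 8.86 in the controls and 9.47, 9.74 and 9.73 after noise, a difference of 0.72 ± 0.10 (SE, n = 3 per group, adjusted p = 0.00456). Midn rose by 0.59 and the exchange factor Rasgef1b by 0.40. The remaining rises, between 0.22 for the integrin activator Fermt2 and 0.62 for Abtb2, included the membrane protein Ttyh1 (0.55), the aminotransferase Gpt2 (0.55), the aminoacyl-tRNA synthetase Iars (0.28), the dynein subunit Dync1li1 (0.46) and the Golgi calcium pump Atp2c1 (0.27). Efhd2, Midn and Rasgef1b kept the calls whichever of the 6 arrays was left out. The call was lost without immediate replicate 3, and for some also without control replicates 1, 2 or 3 or immediate replicates 1 or 2, for Abtb2 (0.56 to 0.72), Ttyh1 (0.47 to 0.62), Iars (0.26 to 0.32), Dync1li1 (0.42 to 0.50) and Atp2c1 (0.25 to 0.32), and in each of the 6 removals for Fut9 (0.77 to 1.02), Medag (0.64 to 0.85), Fermt2 (0.19 to 0.25) and Gpt2 (0.51 to 0.60).

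The falls were small and mixed in kind. The 2 largest were in genes of lipid mediators. In the list of sphingolipid metabolism 1 of 24 measured members fell, and the median was 0.03. It was Smpd3, a neutral sphingomyelinase, which lay at 7.10, 7.29 and 7.89 in the controls and 6.60, 6.27 and 6.62 after noise, a difference of -0.93 ± 0.16 (SE, n = 3 per group, adjusted p = 0.0143). In the prostaglandin list 1 of 13 fell, and the median was -0.07. It was Hpgd, the enzyme that inactivates prostaglandins, which lay at 7.98, 7.63 and 7.84 in the controls and 7.03, 6.77 and 7.12 after noise, a difference of -0.84 ± 0.14 (SE, n = 3 per group, adjusted p = 0.00991). Mxd4, a repressor that competes with Myc for its partner Max, lay at 9.45, 9.27 and 9.44 in the controls and 8.88, 8.77 and 8.71 after noise, a difference of -0.60 ± 0.08 (SE, n = 3 per group, adjusted p = 0.00204). The integrin subunit Itga10 lay at 8.50, 8.44 and 8.49 in the controls and 8.00, 8.02 and 7.95 after noise, where the controls spread over less than 0.1, a difference of -0.49 ± 0.07 (SE, n = 3 per group, adjusted p = 0.00367). The amino acid transporter Slc43a1 fell by 0.69 and the thiamine transporter Slc19a3 by 0.42. The gene 4833420G17Rik fell by 0.55. Hpgd, Mxd4, Itga10 and 4833420G17Rik kept the calls whichever of the 6 arrays was left out. Calls ended without immediate replicate 2 for Smpd3 (-1.09 to -0.70), and without control replicate 2 or immediate replicate 1, and for some also without control replicates 1 or 3 or immediate replicates 2 or 3, for Slc43a1 (-0.78 to -0.64) and Slc19a3 (-0.49 to -0.37).

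Falls among regulators of signalling were each small. Stim1, the calcium sensor of the endoplasmic reticulum, lay at 8.55, 8.45 and 8.35 in the controls and 8.05, 8.12 and 7.99 after noise, a difference of -0.40 ± 0.08 (SE, n = 3 per group, adjusted p = 0.0234). Pik3ip1, which inhibits PI 3-kinase, lay at 8.80, 8.93 and 8.75 in the controls and 8.42, 8.41 and 8.41 after noise, with the 3 immediate arrays almost equal, a difference of -0.41 ± 0.07 (SE, n = 3 per group, adjusted p = 0.0157). Nrtn, a ligand of the GDNF family that supports neurons, lay at 7.62, 7.47 and 7.49 in the controls and 7.10, 6.98 and 7.15 after noise, a difference of -0.45 ± 0.09 (SE, n = 3 per group, adjusted p = 0.0343). The Cdc42 effector Cdc42ep4 fell by 0.43, the ion channel Calhm2 by 0.45, the myosin kinase Mylk by 0.38, the phospholipase Plcd3 by 0.37 and the inositol hexakisphosphate kinase Ip6k1 by 0.26. Other probe sets of Ip6k1 above the filter level stood at -0.08 and 0.07. Reln, a secreted guidance protein, fell by 0.28. Significance was lost without control replicate 2 or immediate replicate 3, and for some also without control replicates 1 or 3 or immediate replicates 1 or 2, for Stim1 (-0.45 to -0.35), Pik3ip1 (-0.45 to -0.36), Cdc42ep4 (-0.50 to -0.39), Calhm2 (-0.52 to -0.36), Mylk (-0.43 to -0.33) and Ip6k1 (-0.28 to -0.24), and in each of the 6 removals for Nrtn (-0.49 to -0.40), Plcd3 (-0.41 to -0.32) and Reln (-0.30 to -0.25).

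Several falls encode nuclear proteins. Mbd1, which binds methylated DNA, lay at 8.57, 8.62 and 8.66 in the controls and 8.11, 8.13 and 8.04 after noise, a difference of -0.52 ± 0.10 (SE, n = 3 per group, adjusted p = 0.0279). Its 4 other probe sets stood at -0.17, -0.09, 0.08 and 0.17, in order of falling mean level. Zfp740 lay at 9.15, 9.14 and 9.14 in the controls and 8.83, 8.83 and 8.66 after noise, with controls within 0.02 of each other, a difference of -0.37 ± 0.06 (SE, n = 3 per group, adjusted p = 0.0143). The zinc finger genes Zkscan17 and Zfp90 fell by 0.43 and 0.40, the AF4 family nuclear factor Aff3 by 0.37, the signalosome subunit Cops7b by 0.37 and the primase-polymerase Primpol by 0.56. The other probe set of Cops7b stood at -0.07. The spindle protein Ccsap fell by 0.57, Mocs2 of molybdenum cofactor synthesis by 0.36, Commd4 by 0.35, Wdr81 by 0.35, and the noncoding Lncppara and D930003E18Rik by 0.38 and 0.63. Below rank 30 stood the selenoproteins Selenoh and Selenom (-0.33 and -0.30), the repair factor Xpa (-0.34), Sumo3 (-0.28), the respiratory chain subunit Cox7a2l (-0.22), the elongation factor Eef1d (-0.27) and the ribosomal protein Rps3, the smallest fall (-0.19). Other probe sets of Eef1d stood at -0.20, 0.16 and -0.18. The call was lost without control replicate 2 or immediate replicate 3 for Zfp740 (-0.40 to -0.31), and without control replicate 2 or immediate replicate 3, and for some also without control replicates 1 or 3 or immediate replicates 1 or 2, for Aff3 (-0.40 to -0.33), Cops7b (-0.41 to -0.32), Mocs2 (-0.43 to -0.31), Commd4 (-0.41 to -0.31), Lncppara (-0.43 to -0.32), Selenoh (-0.37 to -0.29), Selenom (-0.36 to -0.24), Sumo3 (-0.32 to -0.25) and Eef1d (-0.34 to -0.24), and in each of the 6 removals for Mbd1 (-0.55 to -0.50), Zkscan17 (-0.47 to -0.38), Zfp90 (-0.45 to -0.33), Primpol (-0.62 to -0.51), Ccsap (-0.62 to -0.54), Wdr81 (-0.39 to -0.28), D930003E18Rik (-0.69 to -0.54), Xpa (-0.37 to -0.28), Cox7a2l (-0.24 to -0.20) and Rps3 (-0.20 to -0.17).

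Btla, Crtam and Acan, which fell, are markers of cells that the dissection can carry along. Btla, an inhibitory receptor of lymphocytes, lay at 5.73, 5.69 and 5.95 in the controls and 4.76, 4.64 and 5.49 after noise, a difference of -0.83 ± 0.17 (SE, n = 3 per group, adjusted p = 0.0369), and immediate replicate 3 was close to the controls. Crtam, a receptor of activated T and NK cells, lay at 6.06, 5.80 and 5.93 in the controls and 5.25, 5.24 and 5.38 after noise, a difference of -0.64 ± 0.13 (SE, n = 3 per group, adjusted p = 0.0357). Acan, the proteoglycan of cartilage and of the nets around some neurons, lay at 8.52, 8.89 and 8.76 in the controls and 8.22, 8.25 and 8.09 after noise, a difference of -0.54 ± 0.09 (SE, n = 3 per group, adjusted p = 0.00987). Of the 8 B cell markers measured 7 lay below 0, with a median of -0.23, and their mean log2 level ran from 6.12 to 6.74 in the controls and 5.97 to 6.17 after noise. All 5 T and NK markers lay below 0, with a mean level of 6.22 to 6.25 in the controls and 5.95 to 6.09 after noise. For the cartilage and tendon list the levels were 8.18 to 8.44 in the controls and 8.26 to 8.37 after noise. Each of these list levels includes the called gene itself, Btla, Crtam or Acan. Of the markers listed, 7 of 16 for B cells and 10 of 17 for T and NK cells were below the filter. The part of lymphocytes and of cartilage or tendon cells in the 3 falls was not tested. Calls ended without control replicates 1, 2 or 3 or immediate replicates 1 or 2 for Btla (-1.09 to -0.67), and without control replicate 2 or immediate replicate 3 for Acan (-0.64 to -0.45), and in each of the 6 removals for Crtam (-0.70 to -0.57).

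The marker lists of the cell types of the nerve held 0 calls. The 23 spiral ganglion neuron markers had a median of 0.02, with Scn1a, Uchl1 and Tubb3 at 0.23, 0.21 and -0.14, and a mean level of 9.91 to 9.97 in the controls and 9.92 to 10.07 after noise. The 15 markers of Schwann cells and peripheral myelin had a median of 0.06, with Fa2h, Sox10 and Pmp22 at 0.34, 0.52 and -0.12. All 12 oligodendrocyte markers lay above 0, with a median of 0.23 and with Aspa and Gpr37 at 0.21 and 0.25. Their mean level ran from 7.53 to 8.19 in the controls and 8.05 to 8.32 after noise, and the controls alone spread over more than that median. Astrocytes and satellite glia gave a median of 0.17, with the glutamate transporter Slc1a3 at 0.39, Slc4a4 at 0.34 and Kcnj10 at 0.17. In the sensory epithelium the hair cell median was 0.01, with Pvalb, Pou4f3 and Espn at -0.16, 0.26 and 0.15, and that of support cells and fibrocytes was 0.02, with Tecta, Gjb2 and Slc26a4 at 0.70, 0.12 and -0.14. Endothelium and pericytes had a median of -0.09, with Abcc9, Flt1 and Vwf at -0.25, 0.30 and -0.35. Among leukocytes the macrophage median was -0.14, with Cd163, Ctss and Trem2 at -0.40, -0.31 and -0.22, and the neutrophil median was -0.06, with Mmp9, Csf3r and S100a9 at -0.27, -0.13 and 0.55. The 5 skeletal muscle markers had a median of -0.16, with Neb, Casq1 and Ckm at 0.35, -0.40 and -0.16. The lists with the widest spread between controls were those of neutrophils, erythroid cells and bone. The mean neutrophil level ran from 5.36 to 7.83 in the controls and 5.54 to 7.27 after noise. The mean level of 8 bone markers ran from 7.88 to 9.16 in the controls and 7.56 to 8.39 after noise, and that of 4 erythroid markers from 5.10 to 6.74 in the controls and 5.12 to 5.41 after noise, with medians of -0.36 and -0.42. Sost, Mepe and Phex of bone stood at -1.38, -0.86 and -0.48, and the erythroid Ermap, Klf1 and Alas2 at -0.38, -0.47 and -0.24. Between control mice all 3 levels thus varied by more than the median rise of 0.61, and their part in the results was not tested.

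The sizes differed between the exposed mice. The median over the 79 rises was 0.56, 0.58 and 0.69 in immediate replicates 1, 2 and 3, and over the 48 falls -0.33, -0.38 and -0.40. Over the 2-fold rises the medians stood further apart, at 1.60, 1.14 and 1.73. In 12 of these 16 genes replicate 2, a female, was the lowest immediate array, and in 12 replicate 3, the male, was the highest. Over all rises replicate 3 was the highest in 46 genes, and over all falls the lowest in 26. As a median over genes, the spread between exposed mice was close to that between controls, but single genes differed. The SD in controls and after noise was 0.20 and 0.87 for Gem, 0.22 and 1.05 for Socs3 and 0.44 and 1.17 for Junb. It went the other way for Dio2 (0.41 and 0.31) and Fosl2 (0.50 and 0.26). The median SD was 0.12 in controls and 0.14 after noise for the rises, 0.28 and 0.36 for the 2-fold rises, 0.09 and 0.07 for the falls, and 0.09 in both groups for all genes.

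**Figure D3:**
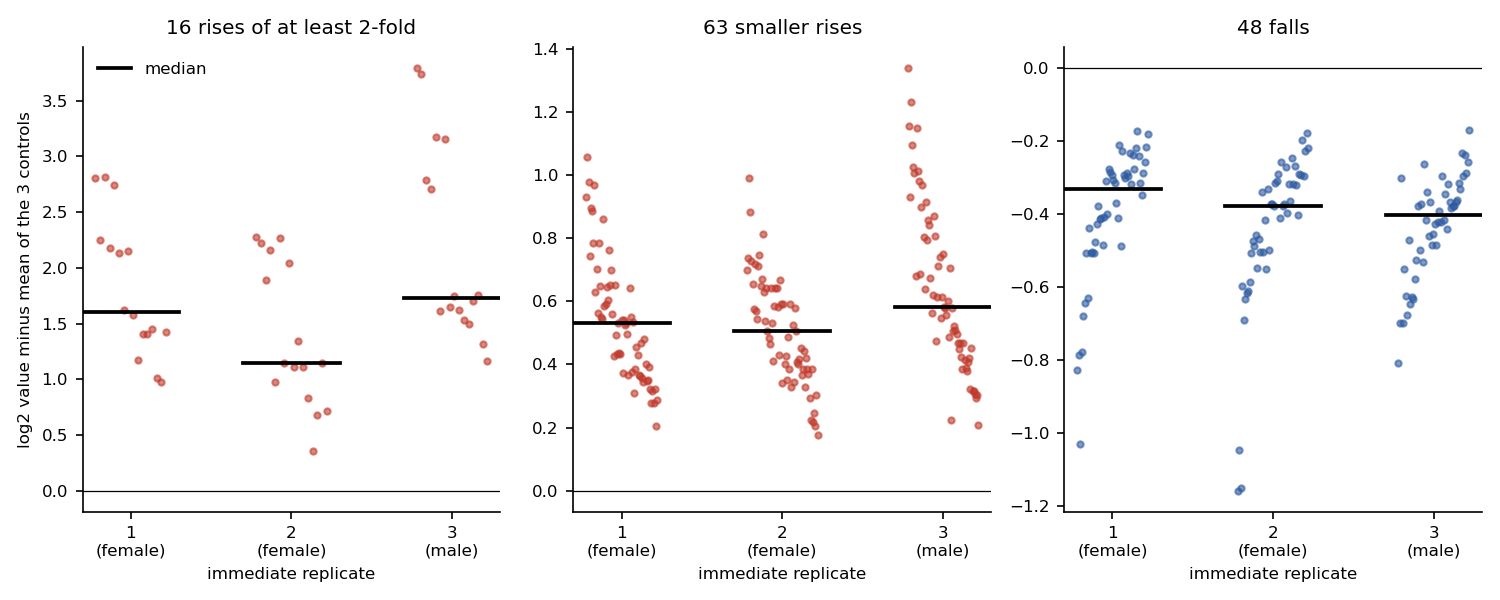
Value of each called gene in each immediate replicate, as log2 value minus the mean of the 3 controls (vertical axis), for the 16 rises of at least 2-fold, the 63 smaller rises and the 48 falls; 1 point is 1 gene, ordered from left to right by size of its mean difference, the bar is the median over genes, and the panels have different scales. The genes were chosen by this difference, which sets the side of 0 they lie on, and replicate 2 has the lowest median of the 2-fold rises, 1.14.

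Many calls were lost when a single array was left out. With immediate replicate 3, the male, left out 29 genes were called, all of them among the 127, and without control replicate 2 the number was 35, of which 34 were among the 127. Without the other arrays it was between 57 and 80. The call held in all 6 removals for 25 genes, 21 rises and 4 falls, and these 25 were also called with sex as a term. They were Fos, Gem, Nr4a1, Dio2, Nr4a3, Fosl2, Maff, Tgfbi, Plk2, Rgs2, Neat1, Crem, Phlda1, Efhd2, Irx3, Cbarp, Fzd1, Midn, Hivep2, Rasgef1b and Hmgcs1 among rises, and Hpgd, Mxd4, Itga10 and 4833420G17Rik among falls. For 36 genes the call was lost in each removal. A removal left 2 arrays in its group, and the median standard error over all genes was then 0.11, beside 0.10 as reported. The part of this smaller number of arrays in the lost calls was not tested. With sex as a term 79 genes were called, 68 of them among the 127. Among the rises ranked 1 to 30, Socs3, Btg2, Osmr, Vdr, Nfil3, Fut9, Sik1, Hbegf, Medag, Nr4a2 and Emp1 lost the call with that term, at adjusted p between 0.0502 and 0.0752. In the female arrays alone, with 2 exposed mice, 8 genes were called.

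**Figure D4:**
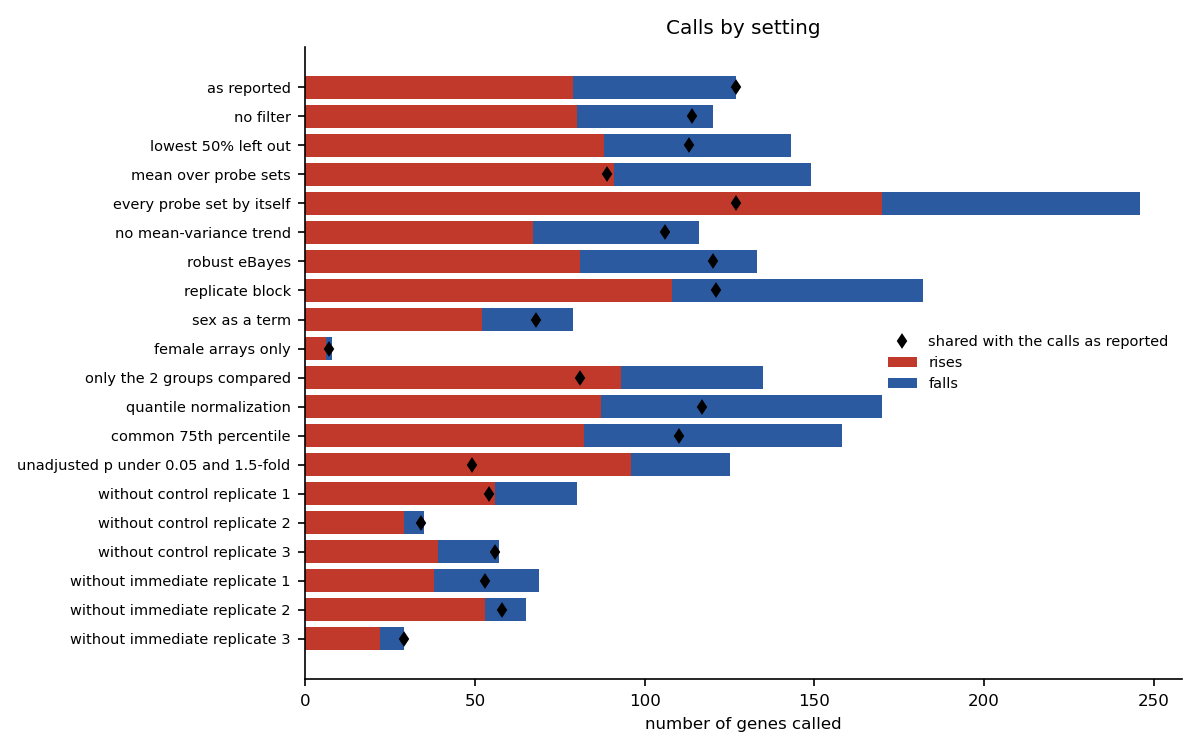
Number of genes called (horizontal axis) as rises (red) and falls (blue) as reported and under 19 other settings, 1 a row, with a diamond at the number of those genes that are among the 127 called as reported; array weights, with 757 calls, are left out. Leaving out immediate replicate 3 or control replicate 2 gives 29 and 35 calls, and female arrays alone give 8.

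The next mice were taken at 1 day. Between the immediate arrays and those at 1 day, 1145 genes were called (8.39% of genes tested), 597 lower (4.38%) and 548 higher (4.02%) at 1 day. Of the 79 rises 41 were lower at 1 day and 0 higher, and of the 48 falls 25 were higher and 0 lower. Both comparisons use the immediate arrays, so genes picked as high in them lean to a later fall, and the mice at 1 day were all male. The median difference from control over the 79 rises was 0.22 at 1 day, 0.12 at 7 days and 0.09 at 14 days, beside -0.01, 0.01 and 0.02 over all genes. For the 48 falls it was -0.12, -0.12 and -0.11.

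The called rises stood at various distances from control at 1 day. Gem was lower at 1 day by 2.44 and Dio2 by 2.55, which brought them to 0.30 and -0.20 from control. Of the STAT3 pair, Socs3 stood 2.01 and Osmr 1.23 above control at 1 day, and both were near control at 7 days, at -0.13 and 0.00. Nfil3 and Chac1 also had 1-day means no lower than the immediate ones, with differences of 0.03 and 0.06. All 5 cholesterol genes were lower at 1 day, by 0.37 for Cyp51 to 0.83 for Idi1, and the 1-day means of Idi1, Msmo1, Hmgcs1 and Sqle lay below control, Idi1 at -0.25 and Msmo1 at -0.24. Among the falls Mbd1 and Crtam were higher at 1 day by 0.91 and 1.05, above control, whereas Acan and Hpgd stood at -0.53 and -1.06.

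**Figure D5:**
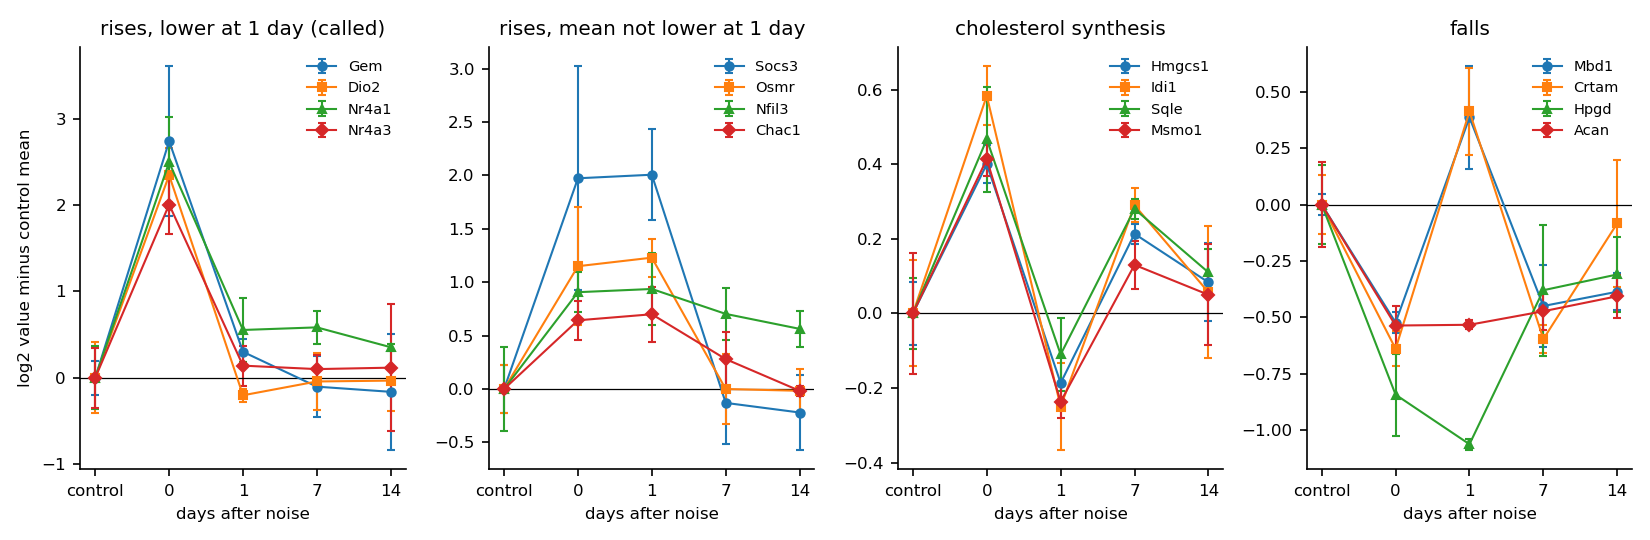
Mean log2 value minus the control mean (vertical axis) in the 5 groups (horizontal axis, control and days after noise) for 4 rises that were lower at 1 day by the test, 4 rises whose mean was not lower at 1 day, 4 cholesterol genes and 4 falls; bars are SD over 3 arrays, and the panels have different scales. Gem and Dio2 stand at 0.30 and -0.20 at 1 day, Socs3 and Osmr at 2.01 and 1.23.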

How the data were processed

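RNA of the auditory nerve was labelled (50 ng per array) and hybridised to Affymetrix 3′ arrays by the authors. The authors deposited log2 values for 45101 probe sets on 15 arrays, from 2.06 to 14.63. The submitters' processing notes name Affymetrix Expression Console, RMA and MAS5 with no version, and which of them made the values is not stated there. No further normalization was applied.

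Gene names came from the platform annotation: 34945 probe sets had 1 gene symbol, 932 several and 9160 none, and 64 were control probe sets. Each of 18193 genes was its 1-gene probe set of highest mean, and genes in the lowest 25% of mean (at or below 4.70) were left out, which left 13644. limma 3.58.1 in R 4.3.3 (lmFit and eBayes with a mean-variance trend) was fitted to all 15 arrays in 5 groups of 3, with 10 residual degrees of freedom. Tests were two-sided, adjusted by Benjamini-Hochberg over all genes, and adjusted p under 0.05 was a call; ± gives the standard error. The number of arrays limits the precision. The fit was tested on data simulated with independent normal noise and no sex or array effect. There it called 73% of 100 genes changed by 0.5 and 96% of 100 changed by 1, with 7 false calls. The simulation does not show how sex or array effects would alter these shares.

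The genes named are those ranked 1 to 30 among called rises and falls with all 3 immediate arrays on one side of the controls, every called list member, and up to 3 members of smallest p in lists without a call. The comparison, the 42 gene lists (741 memberships, 53 without a 1-gene probe set and 81 below the filter) and the tests were chosen with earlier results of these data known, so no list was tested as a set. Of 575 list genes tested 36 were called. Among the called genes 78 have other probe sets, 165 in all, of which 27 differed in the opposite direction, 15 of those above the filter level. Replicate numbers of control and immediate arrays were not taken as pairs. The correlations of their deviations from the group means were 0.02, 0.03 and 0.21. Arrays of unlike number were not compared, so these values do not settle whether arrays of the same number belong together. Promoters (250 bases before the start) are RefSeq's on GRCm38.p6, searched in Python 3.11.15 for exact strings. Some genes have several promoters, and a gene counted as holding a string if any of them did. No scan date was used here.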

Additional observations from a re-analysis of the deposited data

Results flagged for a closer look

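34 of the genes named by the rule differed between the immediate and the 1-day arrays by limma's test with Benjamini-Hochberg adjustment, and so differed between times in their distance from the same controls. Log2 differences, 1 day minus immediate, are in brackets. Some early transcription factors, CREB targets and feedback genes were lower at 1 day: Dio2 (-2.55), Gem (-2.44), Nr4a1 (-1.94), Nr4a3 (-1.87), Rgs2 (-1.07), Btg2 (-0.95), Crem (-0.93), Cebpb (-0.91), Maff (-0.83), Plk2 (-0.72), Sik1 (-0.70) and Phlda1 (-0.65). Called genes of the same lists that missed this test were Fos, Junb, Fosl2, Nr4a2, Dusp1, Dusp5 and Spred1, at adjusted p between 0.0735 and 0.272, and Socs3 and Osmr, at 0.970 and 0.870. The 5 called cholesterol genes were lower as well: Idi1 (-0.83), Msmo1 (-0.65), Hmgcs1 (-0.59), Sqle (-0.58) and Cyp51 (-0.37). Vdr (-1.20), Neat1 (-1.08) and Tgfbi (-0.41) make up the remaining genes that were lower.

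Of the falls, Mocs2 (0.42), Mbd1 (0.91) and Crtam (1.05) had a 1-day mean above control. Differences in the same direction, with a 1-day mean still below control, were seen for Itga10 (0.25), Mylk (0.25), Cops7b (0.27), Aff3 (0.28), 4833420G17Rik (0.28), Zfp90 (0.32), Commd4 (0.33), Zfp740 (0.35), Cdc42ep4 (0.36), Lncppara (0.37) and Mxd4 (0.44). All 3 mice at 1 day were male and 2 of the 3 immediate mice female, and the immediate arrays serve both comparisons.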

How the results depend on the processing

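Counts of calls moved with several choices. The 127 calls (79 rises, 48 falls) became 246 genes (170 and 76) when every probe set was tested by itself, and 757 (397 and 360) with array weights, which also gave 88 called list genes in place of 36 and 1898 genes between the immediate and 1-day arrays in place of 1145. With sex as a term they were 79 (52 and 27), and 652 between the immediate and 1-day arrays. Female arrays alone gave 8 (6 and 2) and 5 list genes. The number of falls was 83 after quantile normalization, 76 at a common 75th percentile, and 29 at an unadjusted p under 0.05 with a 1.5-fold change, where 57 list genes and 271 genes between the immediate and 1-day arrays passed. With the replicate block, although the numbers were not taken as pairs, 182 genes were called, 108 rises and 74 falls. The cause of these shifts was not tested. With 1 array left out the calls ran from 29 to 80, the rises from 22 to 56, the falls from 6 to 31, the called list genes from 15 to 29 and the calls between the immediate and 1-day arrays from 382 to 744. The other settings (only the 2 groups compared, robust eBayes, no trend, probe sets averaged per gene, and either no filter or one that drops the lowest 50%) gave between 116 and 149 calls. Between 81 and 120 of these were among the 127, so the genes called changed more than the totals. With only the 2 groups compared, 60 of the 79 rises and 21 of the 48 falls were called again. With probe sets averaged per gene these were 57 and 32. For single genes and list medians, 5805 values counted as unchanged, 1079 fell short of the threshold, 98 passed it newly and 100 list medians moved by more than the spread between controls. A gene not called as reported counted as unchanged also when its sign changed. A list median counted as unchanged when it moved by less than that spread. Of the 127 called genes 0 reversed direction between control and immediate arrays in any setting. The number of arrays limits the precision, and probe sets near background understate a change.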

Other observations

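The called genes not taken up by class complete the account. Among rises these were Pter (0.58), Ldb3 (0.54), Osbpl6 (0.50), Coq10b (0.49), Ifrd1 (0.47), Cpm (0.44), Pura (0.42), Snx16 (0.41), Kctd15 (0.40), 6820431F20Rik (0.38), Zfand5 (0.28) and Arhgef12 (0.27), as log2 differences from control. Coq10b and Osbpl6 act on lipids, the former by binding coenzyme Q and the latter as an oxysterol-binding protein. Ldb3 is known as a protein of the muscle Z-disc. Among falls they were Tmem37 (-0.34), 1600020E01Rik (-0.34), Rab34 (-0.33), Mtarc2 (-0.33), Bckdha (-0.31), Tmem9 (-0.31), Acbd4 (-0.30), Svbp (-0.30) and Lypd1 (-0.29). Bckdha is a subunit of the enzyme that degrades branched-chain amino acids, and Mtarc2 an enzyme that carries the molybdenum cofactor, which Mocs2 helps to make. All of these genes had their immediate arrays on one side of the controls, and Cpm, Snx16, 6820431F20Rik, Mtarc2, Bckdha, Acbd4 and Lypd1 lost the call whichever of the 6 arrays was left out; the others lost it in 1 or more of the 6 removals.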
